A study of Triticum aestivum with 12 samples.

Results

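Histone H2B is a core histone. It pairs with H2A in the nucleosome, the protein spool around which DNA is wound, and most of it is made while DNA is copied, in dividing cells such as those of the root tip. Bread wheat carries related A, B and D genomes with many nearly identical H2B genes, so an array probe made for one H2B transcript can also bind RNA from others.

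The histone H2B transcript cluster comprised 39 of 61179 probe sets, which were taken by their identifiers: all 38 whose name starts with Ta.7378. and 1 probe set of the gene wcH2B-6 (LOC543183), Ta.27708.1.S1_x_at. They stand for 30 transcripts, and 9 transcripts were measured by a pair of probe sets. Of the 39, 20 end in _at and 19 in _x_at, a suffix that marks probes shared with other transcripts. The platform annotation gave a gene to 8 of them, 7 for wcH2B-8 (LOC543184) and 1 for wcH2B-6, and none to the other 31. No sequence of a probe or transcript was used here. The cluster was selected on its log2 values in Pavon-TL against the other genotypes, which were lower on some of its probe sets, so the comparisons of Pavon-TL with the other genotypes are given below as descriptions without a test.

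Root RNA of wheat seedlings aged 18 days and grown in sand was hybridised to Affymetrix wheat arrays, 12 in all. There were 6 groups of 2 arrays: Pavon-TL, Null Control and Pavon76, each under water stress (water every other day) and well water (water each day). Pavon76 is a wheat cultivar. Pavon-TL is known as a translocation line of it, with a chromosome segment of a wild relative, which the labels leave out. Null Control is not described in the labels. It is treated here, with Pavon76, as the comparison for Pavon-TL, and both are called the control genotypes. Values are log2 RMA values, and array medians lay between 5.89 and 5.93. The number of arrays limits the precision, and because nothing in the labels ties arrays to separate plants, p-values measure the spread between arrays, which may be technical. Probes differ in how strongly they bind, so a higher value on one probe set than on another does not show more transcript; means over all arrays serve only to choose which probe sets are described. Leaf transcripts (31 probe sets annotated as rbcL, the large Rubisco subunit, or the photosystem II proteins PsbO and PsbP), summed as unlogged values, ranged from 7196 to 10543 in Pavon-TL and from 6274 to 11037 in the control genotypes. The same sum ranged from 8312 to 11037 under water stress and from 6274 to 10304 under well water. Between arrays of one genotype and replicate number it was higher under water stress in 6 of 6 pairs, by 1.07 to 1.32 times, and within a group it was higher in replicate 2 in 6 of 6, by 1.21 to 1.49 times. Taken singly and averaged over the genotypes, 18 of the 31 probe sets were higher and 13 lower under water stress (median difference 0.02 on the log2 scale). The part of the leaf signal in the results was not tested. The annotation used here named no marker of root tissue, so the tissue label was not checked further.

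One H2B probe set lost nearly all of its signal in Pavon-TL, another was at 53.9% of its level in the control genotypes, and the other 37 kept their signal. The first, Ta.7378.25.S1_at, read 6.55 and 5.89 in Pavon-TL under water stress and 6.40 and 6.45 under well water. In Null Control it read 11.93 and 11.51 under water stress and 11.77 and 12.03 under well water. Pavon76 gave 11.92 and 11.87 under water stress and 11.90 and 11.66 under well water. The 4 Pavon-TL arrays formed a low set of their own, and the 8 control arrays were all high with no overlap.

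Its mean was 6.32 ± 0.29 in Pavon-TL (SD, n = 4), against 11.82 ± 0.17 in the control genotypes (SD, n = 8). The measured difference was -5.50 ± 0.14 (SE), and the unlogged signal in Pavon-TL was 2.21% of that in the control genotypes. It was -5.58 under water stress and -5.42 under well water, and by genotype -5.49 against Null Control and -5.51 against Pavon76, which share the Pavon-TL arrays. Within arrays of one replicate number it lay between -5.80 and -5.37. The Pavon-TL values lie close to 5.91, the median of all values on the arrays, and were not shown to lie above background, so the measured 2.21% is best read as an upper limit on the signal that remained. An array signal depends on the amount of transcript and on how well probe and transcript match, and here these cannot be told apart. Nor can fewer cells of one type and less RNA per cell in whole roots.

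Ta.7378.35.S1_x_at, annotated as wcH2B-8 and marked as sharing probes, was next. In Pavon-TL it read 11.77 and 11.48 under water stress and 11.96 and 11.67 under well water. Null Control arrays read 12.61 and 12.44 under water stress and 12.58 and 12.91 under well water, and those of Pavon76 12.60 and 12.76 under water stress and 12.52 and 12.48 under well water. Each Pavon-TL array was below each control array, and the gap between the sets was narrow compared with that of Ta.7378.25.S1_at. The means were 11.72 ± 0.20 in Pavon-TL (SD, n = 4) and 12.61 ± 0.15 in the control genotypes (SD, n = 8). The difference of -0.89 ± 0.10 (SE) was -0.98 under water stress and -0.81 under well water. Within arrays of one replicate number it ran from -1.12 to -0.59.

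**Figure D1:**
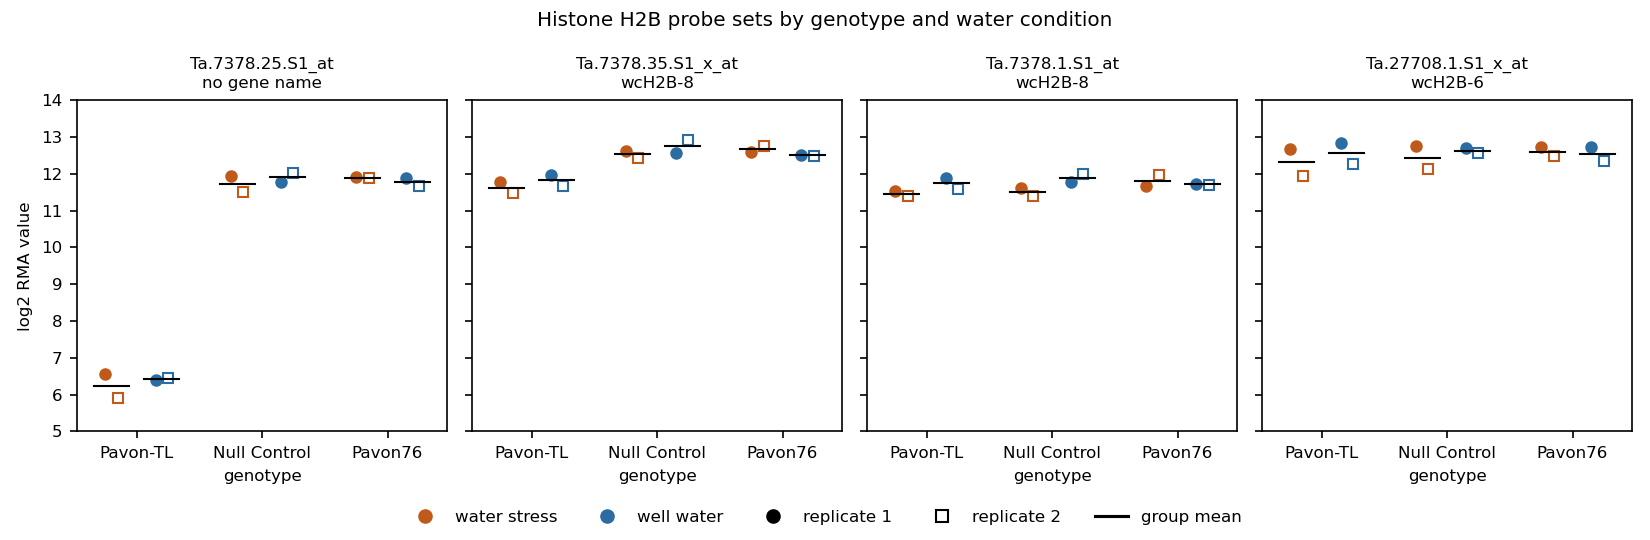
The log2 RMA value of 4 H2B probe sets is plotted for each array by genotype, with water stress left of well water, filled circles for replicate 1, open squares for replicate 2 and a line at each group mean. Ta.7378.25.S1_at lies between 5.89 and 6.55 in Pavon-TL and above 11.5 in both control genotypes, Ta.7378.35.S1_x_at is lower in Pavon-TL by 0.89, and the other 2 overlap between genotypes.

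A member counted as losing signal where its Pavon-TL mean was at least 1 log2 unit below the control mean and the arrays did not overlap. That limit fell in a wide gap, but close to its upper edge. Among replicate 2 arrays Ta.7378.35.S1_x_at was past it, at -1.12 under water stress and -1.02 under well water. The only member inside it was Ta.7378.25.S1_at at -5.50, the nearest outside was Ta.7378.35.S1_x_at at -0.89, and after it came Ta.7378.36.S1_at at -0.22. Over all probe sets the limit was met by 93 (0.152%), and a value of all 4 Pavon-TL arrays below the other 8, with no limit on size, by 246 (0.402%), 2 of them members. All 4 Pavon-TL arrays above the other 8 were found in 166 probe sets (0.271%), 0 of them members. These counts describe the comparison that led to the choice of the cluster and support nothing further.

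The 37 members counted as keeping their signal differed between Pavon-TL and the control genotypes by -0.22 to 0.07, with a median of -0.05. Of these, 4 differences were positive and 33 negative, and in 0 of the 37 did the 4 Pavon-TL arrays lie entirely below or above the other 8. The sign depended on the pair of arrays. Among well-watered replicate 1 arrays Pavon-TL was higher in 37 of 37, by a median of 0.13, and among well-watered replicate 2 arrays in 3 of 37, with a median of -0.14. Under water stress it was higher in 7 of 37 for replicate 1 and in 3 of 37 for replicate 2.

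**Figure D2:**
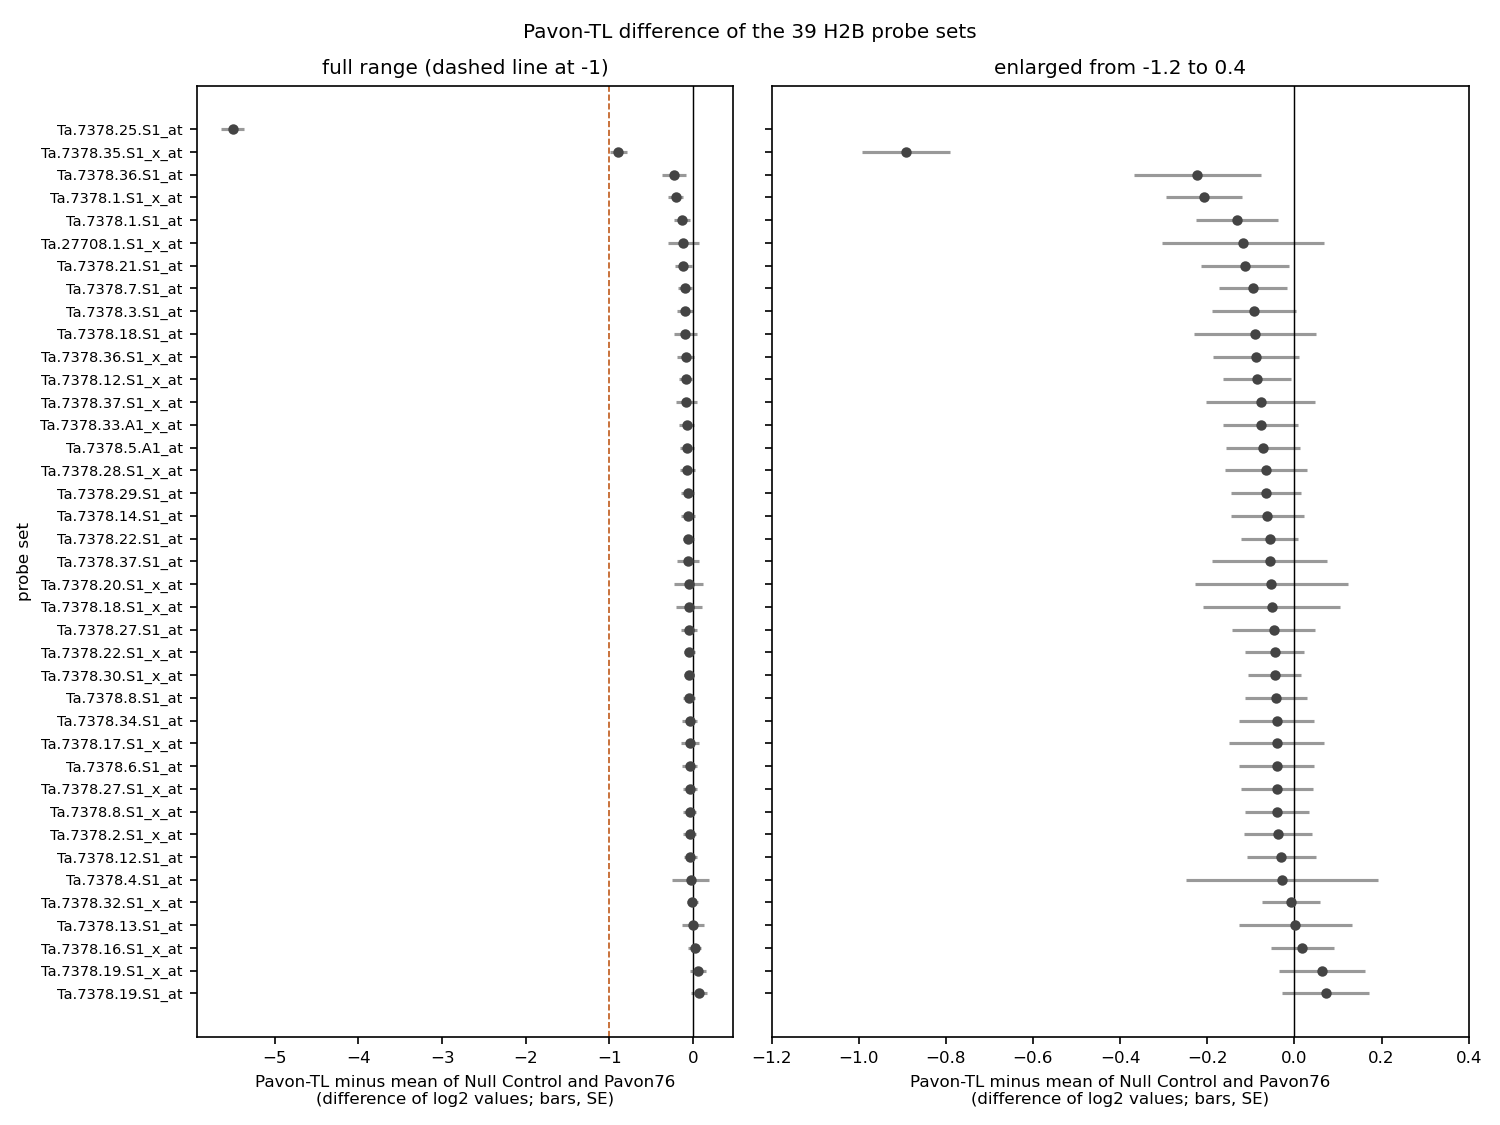
Each of the 39 H2B probe sets has a point at its difference of log2 values, Pavon-TL minus the mean of Null Control and Pavon76, with a bar for the SE; the left panel shows the full range with a dashed line at -1 and the right panel the range from -1.2 to 0.4. The points at -5.50 and -0.89 stand apart, and the other 37 lie between -0.22 and 0.07.

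The probe sets annotated as wcH2B-8 did not all share the lower signal. Ta.7378.1.S1_at read 11.52 and 11.39 in Pavon-TL under water stress and 11.88 and 11.60 under well water. In Null Control it had 11.61 and 11.40 under water stress and 11.77 and 12.01 under well water, and in Pavon76 11.67 and 11.96 under water stress and 11.73 and 11.70 under well water. The genotypes overlapped, and the lowest values were the second stressed arrays of Pavon-TL and Null Control. Its difference in Pavon-TL was -0.13 ± 0.09 (SE). The second probe set of that transcript, Ta.7378.1.S1_x_at, read 12.16 and 12.05 in Pavon-TL under water stress and 12.46 and 12.13 under well water. For Null Control the values were 12.31 and 12.17 under water stress and 12.45 and 12.64 under well water, and for Pavon76 12.39 and 12.60 under water stress and 12.38 and 12.34 under well water. Of the 4 Pavon-TL arrays 3 lay just below all control arrays, and the first well-watered one lay among them. Its difference was -0.21 ± 0.09 (SE).

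A further 4 probe sets of wcH2B-8 came from other transcripts of the cluster. Ta.7378.21.S1_at read 12.11 and 11.80 in Pavon-TL under water stress and 12.25 and 12.00 under well water. Its Null Control arrays gave 12.11 and 11.82 under water stress and 12.19 and 12.45 under well water, and the Pavon76 arrays 12.21 and 12.27 under water stress and 12.17 and 12.01 under well water. The ranges overlapped at a difference of -0.11 ± 0.10 (SE). Ta.7378.17.S1_x_at read 11.85 and 11.50 in Pavon-TL under water stress and 11.82 and 11.49 under well water. It read 11.74 and 11.51 in Null Control under water stress and 11.64 and 11.85 under well water, and 11.88 and 11.84 in Pavon76 under water stress and 11.74 and 11.46 under well water. Here too the genotypes overlapped, at -0.04 ± 0.11 (SE), and the lowest array was the second well-watered one of Pavon76.

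Ta.7378.18 is the last of these transcripts. Ta.7378.18.S1_at read 11.63 and 11.11 in Pavon-TL under water stress and 11.61 and 11.21 under well water. Values in Null Control were 11.53 and 11.09 under water stress and 11.58 and 11.77 under well water, and in Pavon76 11.57 and 11.56 under water stress and 11.53 and 11.20 under well water. Replicate 2 was lower than replicate 1 in 5 of 6 groups, and the genotypes overlapped. Ta.7378.18.S1_x_at read 11.94 and 11.37 in Pavon-TL under water stress and 11.96 and 11.39 under well water. Arrays of Null Control read 11.84 and 11.41 under water stress and 11.74 and 11.92 under well water, and arrays of Pavon76 11.79 and 11.79 under water stress and 11.80 and 11.44 under well water. The differences in Pavon-TL were -0.09 ± 0.14 (SE) for Ta.7378.18.S1_at and -0.05 ± 0.16 (SE) for Ta.7378.18.S1_x_at.

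The other named gene, wcH2B-6, kept its signal. Ta.27708.1.S1_x_at read 12.67 and 11.95 in Pavon-TL under water stress and 12.85 and 12.28 under well water. It gave 12.76 and 12.13 in Null Control under water stress and 12.69 and 12.57 under well water, and 12.73 and 12.48 in Pavon76 under water stress and 12.72 and 12.35 under well water. The highest and the lowest array were both Pavon-TL, and replicate 2 was below replicate 1 in 6 of 6 groups. Its difference in Pavon-TL was -0.12 ± 0.19 (SE). The gene's second probe set, Ta.27708.1.S1_at, lies outside the cluster as defined and averaged 12.46 ± 0.33 in Pavon-TL (SD, n = 4) and 12.51 ± 0.24 in the control genotypes (SD, n = 8).

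Of the members without a gene, Ta.7378.16.S1_x_at and Ta.7378.30.S1_x_at were taken for description by their means over all arrays. Ta.7378.16.S1_x_at read 13.35 and 13.45 in Pavon-TL under water stress and 13.43 and 13.35 under well water. It read 13.36 and 13.38 in Null Control under water stress and 13.23 and 13.50 under well water, and 13.42 and 13.52 in Pavon76 under water stress and 13.23 and 13.37 under well water. Ta.7378.30.S1_x_at read 13.27 and 13.22 in Pavon-TL under water stress and 13.35 and 13.29 under well water. On Null Control arrays it was 13.34 and 13.26 under water stress and 13.29 and 13.46 under well water, and on Pavon76 arrays 13.36 and 13.41 under water stress and 13.29 and 13.22 under well water. Both overlapped between all genotypes, with differences in Pavon-TL of 0.02 ± 0.07 (SE) and -0.05 ± 0.06 (SE). Ta.7378.33.A1_x_at was dim in every genotype, at 5.76 ± 0.06 in Pavon-TL (SD, n = 4) and 5.83 ± 0.15 in the control genotypes (SD, n = 8), near the median of all values. Ta.7378.33.A1_x_at was not shown to lie above background, so neither a loss nor a kept signal can be read from it. The other unnamed members had means over all arrays between 8.36 and 12.82.

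Both probe sets of a transcript, where there were 2, gave similar readings. Over the 9 pairs the correlation across the 12 arrays was between 0.908 and 0.992, the differences in Pavon-TL were at most 0.14 apart, and the signs of the water response matched in 9 of 9. Paired probe sets share probes or target, so they are not separate measurements of a gene. Neither Ta.7378.25.S1_at nor Ta.7378.35.S1_x_at had such a partner in the cluster.

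Outside the cluster, the probe sets whose pattern over the 12 arrays was most like that of Ta.7378.25.S1_at were TaAffx.128836.1.S1_at (Pearson r = 0.998), Ta.28713.1.S1_at (r = 0.996) and Ta.6293.1.A1_at (r = 0.996). These r are descriptions, which rest on the split between the Pavon-TL arrays and the rest. TaAffx.128836.1.S1_at averaged 3.24 in Pavon-TL and 9.70 in the control genotypes, Ta.28713.1.S1_at 8.96 and 12.84, and Ta.6293.1.A1_at, annotated as LOC780661, 4.69 and 10.82. Within the cluster the most alike was Ta.7378.35.S1_x_at (r = 0.954).

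Null Control and Pavon76, whose difference was not used to choose the members, did not differ detectably in the H2B cluster. In limma, 0 of 39 members and 3 of 61179 probe sets (0.0049%) passed at a Benjamini-Hochberg adjusted p under 0.05, and with the replicate number as a block 0 members and 9 probe sets (0.0147%). An unadjusted p under 0.05 was reached by 0 members and by 1249 probe sets (2.04%), and with the block by 0 members and 3158 probe sets (5.16%). Differences, Null Control minus Pavon76, ran from -0.07 to 0.08, with 14 positive and 25 negative and a median of -0.01, against 0.00 over all probe sets. The 95% intervals without the block reached from -0.53 to 0.63, both for Ta.7378.4.S1_at. That member was lower in replicate 2 than in replicate 1 in 6 of 6 groups. Ta.7378.25.S1_at averaged 11.81 ± 0.23 in Null Control and 11.84 ± 0.12 in Pavon76 (SD, n = 4 each), a difference of -0.02 ± 0.16 (SE). Ta.7378.35.S1_x_at averaged 12.63 ± 0.20 in Null Control and 12.59 ± 0.12 in Pavon76 (SD, n = 4 each), a difference of 0.04 ± 0.12 (SE).

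Watering every other day gave no call in the cluster. The summed leaf signal was higher under water stress in 6 of 6 pairs. Of its 31 probe sets, 18 were higher and 13 lower on average over the genotypes (median 0.02). Averaged over the 3 genotypes, water stress minus well water ran from -0.20 to 0.06 over the 39 members, with 10 positive and 29 negative and a median of -0.07, against -0.00 over all probe sets. In limma 0 members passed, as did 0 of 61179 probe sets (0%), and an unadjusted p under 0.05 was reached by 0 members and 2619 probe sets (4.28%). Under the block, 0 members and 5 probe sets (0.00817%) passed, and an unadjusted p under 0.05 was reached by 1 member and 6173 probe sets (10.1%). The 95% intervals without the block lay between -0.66 and 0.39. The member with the smallest p, Ta.7378.1.S1_at of wcH2B-8, differed by -0.19 ± 0.09 (SE, limma adjusted p = 1.00). With the block it was Ta.7378.4.S1_at, at -0.19 ± 0.08 (SE, limma adjusted p = 0.450). Ta.7378.25.S1_at differed by -0.09 ± 0.13 (SE), Ta.7378.35.S1_x_at by -0.08 ± 0.09 (SE) and Ta.27708.1.S1_x_at by -0.12 ± 0.17 (SE).

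The members leaned in different directions by genotype without any of them passing. In Pavon-TL the water response was positive in 4 and negative in 35 members (median -0.12). In Null Control it was positive in 3 and negative in 36 (median -0.17), and in Pavon76 positive in 38 and negative in 1, Ta.7378.4.S1_at (median 0.13). Over all probe sets the median was -0.01 in Pavon-TL, -0.01 in Null Control and 0.01 in Pavon76. By limma 0 members and 0 probe sets (0%) passed in each genotype. With the block 0 members passed in each, and 0 probe sets in Pavon-TL, 1 in Null Control (0.00163%) and 0 in Pavon76. An unadjusted p under 0.05 was reached by 0 members in Pavon-TL (2.5% of all probe sets), 1 in Null Control (3.42%) and 0 in Pavon76 (2.84%). With the block it was reached by 0 members in Pavon-TL (5.99%), 5 in Null Control (8.38%) and 0 in Pavon76 (6.57%).

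These leanings rested in part on single arrays. In Null Control the replicate 1 pair gave 26 positive and 13 negative members (median 0.04), and the replicate 2 pair 1 positive and 38 negative (median -0.40). Its second well-watered array was the highest of the 12 in 25 of the 37 members that kept their signal, and the second stressed Pavon-TL array the lowest in 21. Without that Null Control array 10 members were positive in Null Control, and without its second stressed array 11. In Pavon-TL the 2 pairs gave 6 and 5 positive members, but 16 without the first well-watered and 14 without the second stressed array, against 2 without the second well-watered one. In Pavon76 the pairs gave 30 and 36 positive, and between 31 and 38 were positive whichever array was left out. Averaged over the genotypes, between 4 (without the first well-watered Null Control array) and 18 (without the second) were positive, 18 also without the second stressed and 17 without the first well-watered Pavon-TL array.

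**Figure D3:**
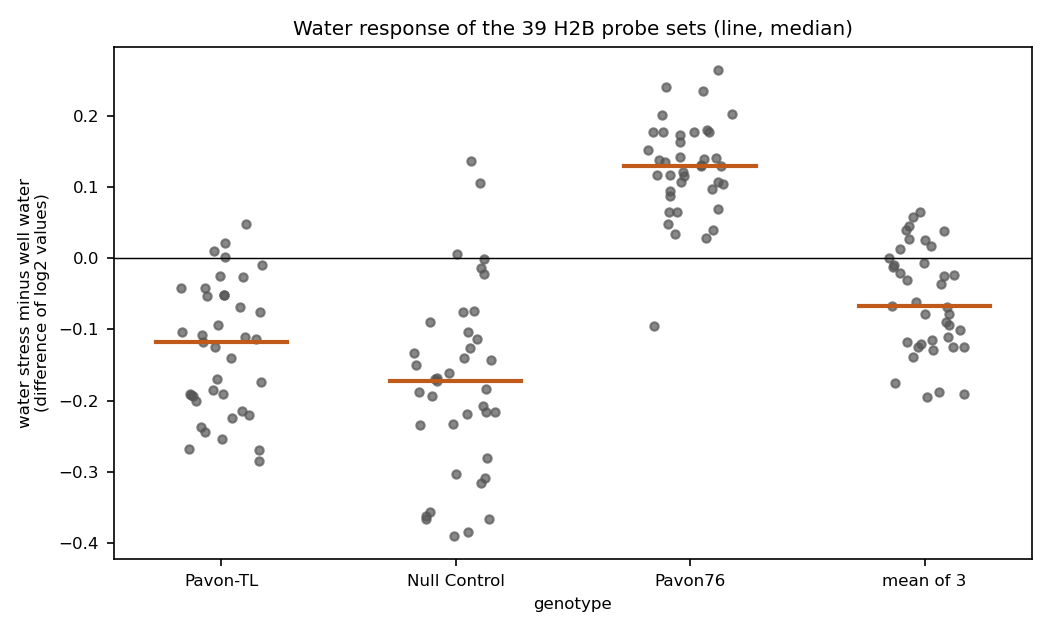
Each point is 1 of the 39 H2B probe sets at its difference of log2 values, water stress minus well water, by genotype and as the average of the 3, with a line at the median. The medians are -0.12 in Pavon-TL, -0.17 in Null Control, 0.13 in Pavon76 and -0.07 for the average, and no member passed the test in any of them.

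Whether the response to water differed by genotype was tested directly. The response of Pavon-TL minus the mean response of Null Control and Pavon76 had a median of -0.12 over the members, with 4 positive and 35 negative, against -0.01 over all probe sets. In limma 0 members and 0 probe sets (0%) passed, an unadjusted p under 0.05 was reached by 0 members and 1080 probe sets (1.77%), and the 95% intervals of the members lay between -1.04 and 1.12. With the block 0 of both passed, and an unadjusted p under 0.05 was reached by 0 members and 2857 probe sets (4.67%). For Ta.7378.25.S1_at the difference in response was -0.17 ± 0.27 (SE) and for Ta.7378.35.S1_x_at -0.17 ± 0.20 (SE), each smaller than its error. The response of Null Control minus that of Pavon76 had a median of -0.31, with 2 positive and 37 negative, and in limma 0 members and 0 probe sets (0%) passed, with or without the block. An unadjusted p under 0.05 was reached by 0 members and 1648 probe sets (2.69%), and with the block by 4 members and 3757 probe sets (6.14%). The smallest adjusted limma p of a member with the block was 0.810, for Ta.7378.21.S1_at at -0.51 ± 0.21 (SE).

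Many of the members that kept their signal varied together across arrays. Over the 666 pairs of these 37 probe sets, the median correlation across the 12 arrays was 0.715 and 91.3% were positive, from -0.635 to 0.992. The probe sets share arrays, normalisation and in part probes. The median deviation of the 37 from their own means was 0.23 on the second well-watered Null Control array, 0.13 on the first well-watered Pavon-TL array and 0.12 on the second stressed Pavon76 array. It was -0.19 on the second stressed Pavon-TL array and -0.17 on the second stressed Null Control array.

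Members differed in how they followed the replicate number, with which the summed leaf signal also moved (higher in replicate 2 in 6 of 6 groups). Ta.7378.4.S1_at was lower in replicate 2 than in replicate 1 in 6 of 6 groups, by 0.35 to 0.83 on the log2 scale. In Pavon-TL it read 11.84 and 11.38 under water stress and 12.08 and 11.36 under well water. In Null Control it read 11.95 and 11.12 under water stress and 12.08 and 11.72 under well water, and in Pavon76 11.90 and 11.35 under water stress and 11.94 and 11.50 under well water. The genotypes overlapped while the replicate numbers did not. Ta.27708.1.S1_x_at, Ta.7378.20.S1_x_at and Ta.7378.13.S1_at were likewise lower in 6 of 6 groups, by averages of 0.44, 0.41 and 0.29. Both probe sets of Ta.7378.19 went the other way, higher in replicate 2 in 5 of 6 groups by an average of 0.17 each. They were also 2 of the 4 kept members with a positive difference in Pavon-TL, at 0.07 and 0.06. The other 2 were Ta.7378.16.S1_x_at at 0.02 and Ta.7378.13.S1_at at 0.00.

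**Figure D4:**
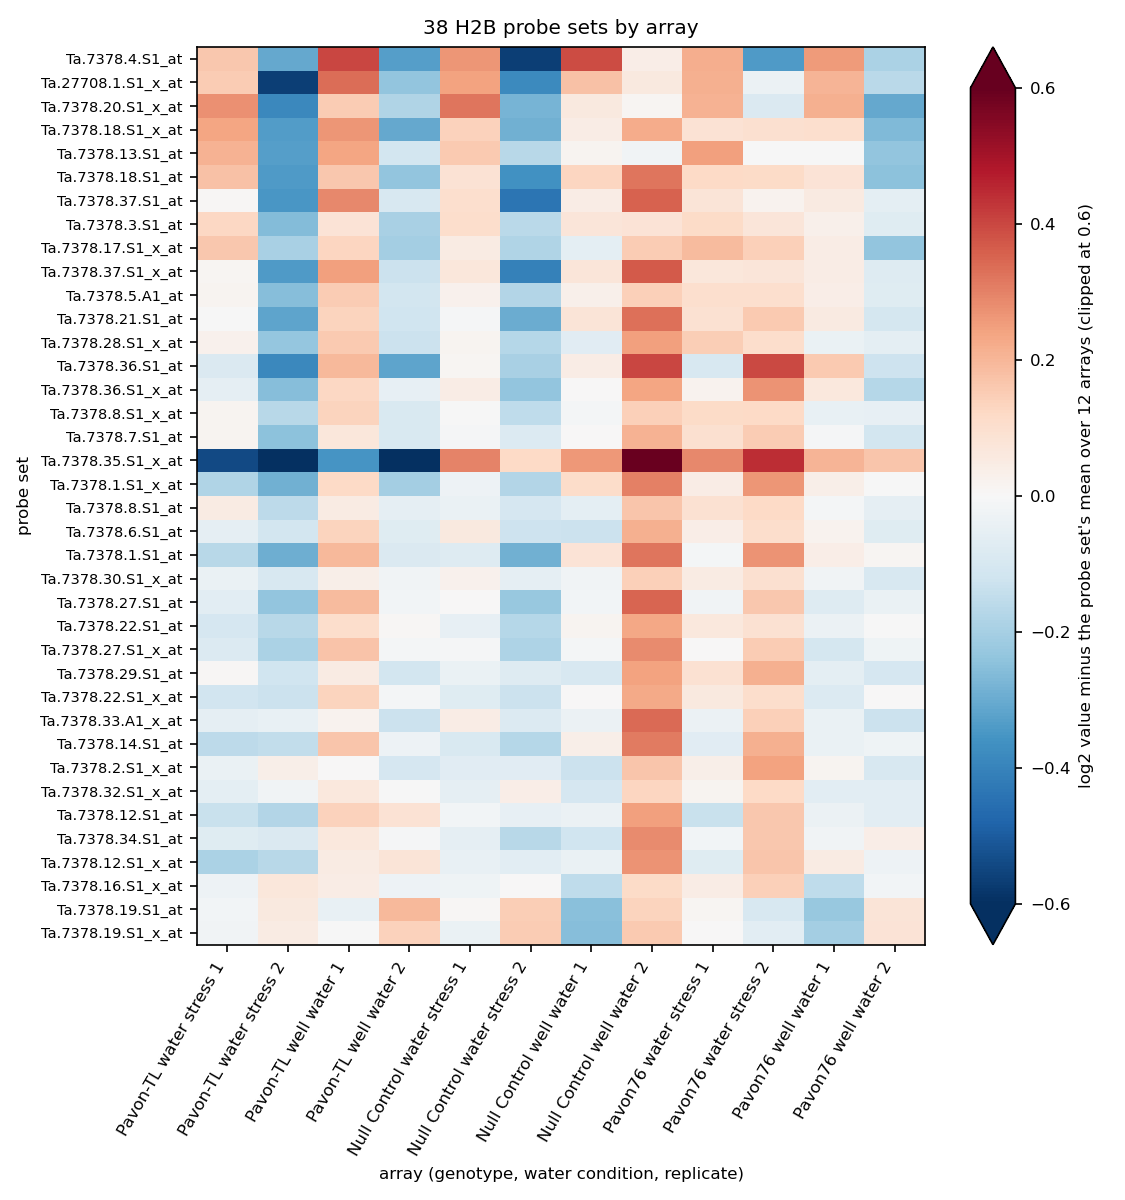
The colour gives each of 38 H2B probe sets (rows, all members but Ta.7378.25.S1_at) on each of 12 arrays (columns) as its log2 value minus its own mean, with rows ordered from lower to higher in replicate 2. The 4 Pavon-TL columns are low in the row of Ta.7378.35.S1_x_at, the second well-watered Null Control array is high in most rows, and the top rows alternate with the replicate number.

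No probe set of the other histones was called under water stress. Some of their differences there lay outside the range of the H2B members that kept their signal. In Pavon-TL only that of Ta.27657.12.S1_at did. This probe set averaged 10.77 ± 0.20 in Pavon-TL (SD, n = 4) and 10.41 ± 0.38 in the control genotypes (SD, n = 8). The list of other histones had 10 probe sets of 4 genes, wcH2A-2, wcH2A-3 and wcH2A-9, which encode the partner of H2B, and the second probe set of wcH2B-6. In Pavon-TL 2 were higher and 8 lower than in the control genotypes (median -0.04, from -0.13 to 0.36, the highest being Ta.27657.12.S1_at of wcH2A-9). Under water stress 3 were higher and 7 lower (median -0.08, from -0.34 for wcH2A-2 to 0.07). There 0 of 10 were called, as were 0 of 61179 probe sets (0%). Of the 4 taken by their means over all arrays, 3 were of wcH2A-9 and differed in Pavon-TL by -0.01 (Ta.27657.6.S1_x_at), -0.02 (Ta.27657.7.S1_x_at) and -0.07 (Ta.27657.14.S1_s_at). The other was Ta.27708.1.S1_at of wcH2B-6, at -0.05. The DNA-binding HMG protein Hmgb3 differed by -0.00 and 0.10 at its 2 probe sets, and the zinc finger protein WZF1 averaged 12.04 ± 0.51 in Pavon-TL (SD, n = 4) and 11.46 ± 0.57 in the control genotypes (SD, n = 8), a difference of 0.59 ± 0.31 (SE). For WZF1 this difference was 0.94 under water stress and 0.24 under well water. By genotype it was 0.79 against Null Control and 0.39 against Pavon76. Tubulins, the subunits of microtubules, had 4 positive and 6 negative differences in Pavon-TL over 10 probe sets (median -0.00). Under water stress they had 1 positive and 9 negative (median -0.10), and 0 were called there. No probe set was named as histone H1, H3 or H4, as an S-phase gene or as an actin in the annotation used here.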

How the data were processed

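RNA from 12 root samples was measured on Affymetrix wheat arrays. The deposited values are log2 values computed by the authors with RMA, per the submitters' processing notes, whose version is not given in the sources used here. RMA corrects background, normalises arrays by quantiles and summarises the probes of a probe set. Of 61290 probe sets, 111 Affymetrix controls were left out. No detection calls were used.

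One limma 3.58.1 fit in R 4.3.3 took all probe sets (6 group means, empirical Bayes, two-sided, Benjamini-Hochberg adjustment over 61179 probe sets, called under 0.05), and the members were read from that fit. The script was tested on simulated data. For the water response averaged over genotypes, it recovered 76% of changes of 1 log2 unit and 93% of changes of 2. Errors of differences are from the limma fit of the real data. Replicate numbers pair the samples: deviations correlated between 0.606 and 0.795 in 15 of 15 pairs of groups, so a fit with the number as a block was made too. What a number stands for is not stated in the labels.

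The members and gene lists were chosen with earlier results of these data known. Members named with every array were those losing signal, the nearest outside the limit, those with a gene, the 2 others with the highest mean and any called. Ta.7378.4.S1_at was added after its values were seen. Gene lists were matched on symbols and synonyms from the 2007 platform annotation and the RefSeq table of IWGSC CS RefSeq v2.1. Alternatives were the block, a filter on dim probe sets, quantile normalisation again, median centring, a floor at the first quartile, an intensity trend, no _x_at probe sets, and leaving out each array.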

Additional observations from a re-analysis of the deposited data

Results flagged for a closer look

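Within the 4 arrays of a genotype, 1 array stood far from the other 3 (by Dixon's criterion) in 3 of 33 sets tested. Chance gives about 1 in 20 for separate sets of like arrays. These sets share arrays, and each holds both water conditions, so the count cannot be judged against that rate. In all 3 flagged sets it was the second well-watered Pavon76 array. Ta.7378.25.S1_at read 11.66 there, against 11.87 to 11.92 on the other Pavon76 arrays. Ta.7378.18.S1_at read 11.20, against 11.53 to 11.57, and Ta.7378.18.S1_x_at, which measures the same transcript, 11.44, against 11.79 to 11.80.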

How the results depend on the processing

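The count of H2B members called was 0 in each of 6 tested comparisons (the water response averaged and in each genotype, Null Control minus Pavon76, and the response of Pavon-TL minus that of the control genotypes) under all 7 alternatives and the 12 fits without 1 array, with the smallest limma adjusted p of a member at 0.450 (water response averaged over genotypes, replicate block). The response of Null Control minus that of Pavon76 was refitted with the block alone. The replicate block changed no call among the members. The count of members lower by 1 log2 unit or more in Pavon-TL was 1 under every one of these. It describes the comparison that led to the choice of the cluster, and several alternatives could not change it. The block and the intensity trend leave the differences as they are, and the floor lay below every member value. Leaving out _x_at probe sets removes Ta.7378.35.S1_x_at, the member nearest the limit. Without 1 array, the Pavon-TL difference of Ta.7378.25.S1_at ranged from -5.66 to -5.34 and that of Ta.7378.35.S1_x_at from -0.97 to -0.82. Among the other 9 of the 11 members that the naming rule gave, it changed sign for Ta.27708.1.S1_x_at (-0.30 to 0.06), Ta.7378.17.S1_x_at (-0.13 to 0.05), Ta.7378.18.S1_at (-0.22 to 0.04), Ta.7378.18.S1_x_at (-0.20 to 0.09) and Ta.7378.16.S1_x_at (-0.02 to 0.05). The water response averaged over genotypes, called for no member, was positive in 4 to 18 of 39 members when 1 array was left out, against 10 with all arrays. Among those 11 members it changed sign for Ta.7378.25.S1_at (-0.20 to 0.0205), Ta.7378.17.S1_x_at (-0.0018 to 0.12), Ta.7378.18.S1_at (-0.15 to 0.0184), Ta.7378.18.S1_x_at (-0.12 to 0.0752) and Ta.7378.30.S1_x_at (-0.0341 to 0.0209). The last also changed sign with quantile normalisation again, at 0.0106. The cause was not tested. Values near the median of all values may be background.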
